A study of Mus musculus with 4 samples.

Results

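The common gamma chain cytokine receptors are the 8 receptor chains Il2ra, Il2rb, Il2rg, Il7r, Il4ra, Il21r, Il15ra and Il9r. They were taken by name from the 39179 gene identifiers of the count files, and each symbol matched 1 identifier. The sequenced RNA came from CD4 T cells of OT-II mice, whose transgenic T cell receptor recognises ovalbumin, after transfer into C57BL/6 hosts that were immunised under the skin with ovalbumin carrying nitrophenol. On day 8 the transferred Thy-1.1+ CD44hi cells were sorted from pooled inguinal lymph nodes. The CXCR5+ PD-1+ sort gave T follicular helper (Tfh) cells, the helpers of B cells, with 2 libraries. The CXCR5- PD-1- sort gave activated non-Tfh cells of the same receptor, with 2 libraries. Both groups thus share the transgene, the host strain, the immunisation and the day. Libraries carry the numbers T32 and T53 in each group, and the labels do not say what the numbers mark, nor whether each library stands for another animal. The p-values therefore cover the spread among these samples only, which may be technical.

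Cytokines of this family signal through receptors that share the gamma chain, encoded by Il2rg, joined to other chains, most of them private to a cytokine. The kinase JAK3 binds the gamma chain and JAK1 binds the other signalling chain, and together they activate STAT factors. These are mainly STAT5 downstream of IL-2, IL-7, IL-9 and IL-15, STAT6 downstream of IL-4 and STAT3 downstream of IL-21. In CD4 T cells, IL-2 signalling through STAT5 is known to oppose the Tfh fate, IL-7 sustains resting and memory cells, and IL-4 and IL-21 are the helper cytokines that Tfh cells give to B cells.

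Library totals were 5725358 to 13360563 counts. A single count thus equals 0.0749 to 0.175 CPM before scaling, a unit that relates a gene's count to the size of its library. Values below are CPM scaled with edgeR's TMM factors, which adjust for the make-up of each library. Cxcr5 and Pdcd1, the genes of the sorted proteins, were 747 and 712 CPM and 536 and 576 CPM in Tfh T32 and T53, against 52.6 and 56.0 CPM and 57.0 and 53.4 CPM in non-Tfh T32 and T53; the sort used both proteins. Thy1, which encodes the sorted Thy-1, measured 85.5 and 93.4 CPM in Tfh libraries against 229 and 219 CPM in non-Tfh libraries and was called lower (log2 fold change -1.33; edgeR, adjusted p = 0.00244). Cd44 measured 231 and 319 CPM in Tfh libraries against 163 and 218 CPM in non-Tfh libraries and was not called (edgeR, adjusted p = 0.210). The T cell markers Cd3e, Cd3d, Cd3g, Cd4, Cd5 and Lck summed to 2838 and 2826 CPM in Tfh cells and to 2531 and 2447 CPM in non-Tfh cells, with none of the 6 called. Of the summed markers of other cells, CD8 T cells gave 6.20 and 3.84 CPM in Tfh and 4.32 and 3.60 in non-Tfh libraries, macrophages and dendritic cells gave 7.29 and 6.81 against 4.25 and 10.9, and mast cells and granulocytes gave 0 and 0 against 0 and 0.112. Germinal centre B cell markers summed to 45.7 and 48.0 CPM in Tfh and 31.7 and 22.8 in non-Tfh libraries, most of it from Fas, which activated T cells also express, and plasma cell markers to 90.2 and 86.3 against 74.6 and 75.4, nearly all from Xbp1. Stromal and endothelial markers summed to 237 and 231 CPM in Tfh and 212 and 229 in non-Tfh libraries, nearly all from Pecam1, which T cells also express. NK cell markers summed to 45.6 and 57.8 CPM in Tfh and 24.8 and 19.8 in non-Tfh libraries, and their 4 genes moved in different directions. Klrb1c measured 44.6 and 57.3 CPM in Tfh libraries against 19.7 and 12.4 CPM in non-Tfh libraries and was called higher (edgeR, adjusted p = 0.0154). Klrd1 measured 0.838 and 0.175 CPM in Tfh libraries against 3.05 and 5.96 CPM in non-Tfh libraries and was called lower (edgeR, adjusted p = 0.0450). Eomes was also called lower (edgeR, adjusted p = 0.0390), and Ncr1 was at 0 in all 4 libraries. The part of NK cells in the results was not tested.

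The promoters of the 3 chains called lower in Tfh than in non-Tfh cells are shown because these genes differed in the same direction. They are the RefSeq windows of 250 bases before to 50 after the start site on GRCm38.p6, for Il7r chr15:9529827-9530126 (minus strand), for Il2ra chr2:11642542-11642841 (plus strand) and for Il4ra chr7:125552021-125552320 (plus strand). Capitals mark matches, on either strand, to a STAT motif TTCNNNGAA, a FOXO motif TGTTTAC, a RUNX motif TGTGGT or an E-box CAGCTG.
Il7r: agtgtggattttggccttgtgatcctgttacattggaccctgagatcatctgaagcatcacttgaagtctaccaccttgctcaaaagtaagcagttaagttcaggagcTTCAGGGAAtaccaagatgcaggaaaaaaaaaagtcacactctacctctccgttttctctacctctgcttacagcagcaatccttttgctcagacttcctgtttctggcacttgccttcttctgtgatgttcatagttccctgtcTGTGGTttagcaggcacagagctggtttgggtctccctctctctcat
Il2ra: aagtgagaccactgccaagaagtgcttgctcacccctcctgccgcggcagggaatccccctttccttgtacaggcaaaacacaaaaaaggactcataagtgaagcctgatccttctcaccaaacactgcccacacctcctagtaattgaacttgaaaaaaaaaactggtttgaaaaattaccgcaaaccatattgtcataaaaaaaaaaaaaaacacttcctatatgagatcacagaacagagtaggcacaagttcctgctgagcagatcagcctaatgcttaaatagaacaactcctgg
Il4ra: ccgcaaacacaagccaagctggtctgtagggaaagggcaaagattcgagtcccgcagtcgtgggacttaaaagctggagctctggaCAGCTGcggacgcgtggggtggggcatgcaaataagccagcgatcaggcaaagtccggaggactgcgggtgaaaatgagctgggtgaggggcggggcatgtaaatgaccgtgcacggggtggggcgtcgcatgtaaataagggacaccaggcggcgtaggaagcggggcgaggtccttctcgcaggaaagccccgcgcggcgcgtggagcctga
The Il7r window held the STAT letters, beginning 142 bases before the start site, and the RUNX letters just after it. The Il4ra window held an E-box beginning 164 bases before the start site, and the Il2ra window held none of the 4 motifs. Of the other windows, those of Il21r (FOXO and RUNX letters, overlapping by 2 bases), Il9r (RUNX), Il2rg (RUNX) and Il15ra (E-box, in 1 of its 2 windows) held matches. RefSeq windows were matched for 7 of the 8 chains, all but Il2rb. Among all 32851 windows, 8.30% held the STAT letters, 3.65% the FOXO, 16.8% the RUNX and 16.3% the E-box letters, and a match is a description of letters, not of binding.

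The comparison asked how the receptors differ between Tfh and activated non-Tfh cells of the same antigen specificity on the same day. No earlier cells were sequenced, so "fell" and "rose" mean lower and higher in Tfh than in non-Tfh cells, not a change over time. Il7r, Il2ra and Il4ra fell in Tfh cells, Il7r by 35.6-fold, Il2ra by 24.2-fold and Il4ra by 2.13-fold. The shared chain Il2rg, the signalling chain Il2rb and the chains Il21r, Il15ra and Il9r did not pass the test. All 8 chains had enough counts to be tested. Of the 8, 3 fell and 0 rose at an adjusted p of 0.05 in edgeR's quasi-likelihood test, 5 had an unadjusted p under 0.05, as had 22% of all genes tested, and DESeq2 called 4 lower and 1 higher, where it called 4.58% of all genes lower and 5.15% higher. Among all 11702 genes tested, edgeR called 4.02% lower and 4.47% higher in Tfh cells, 8.49% in all. The median log2 fold change over the 8 was -0.24, beside -0.01 over all genes tested. The libraries of the groups did not overlap for 5 of the 8 chains, and 52.2% of all genes tested did not overlap either, so non-overlap sets none of the chains apart.

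**Figure D1:**
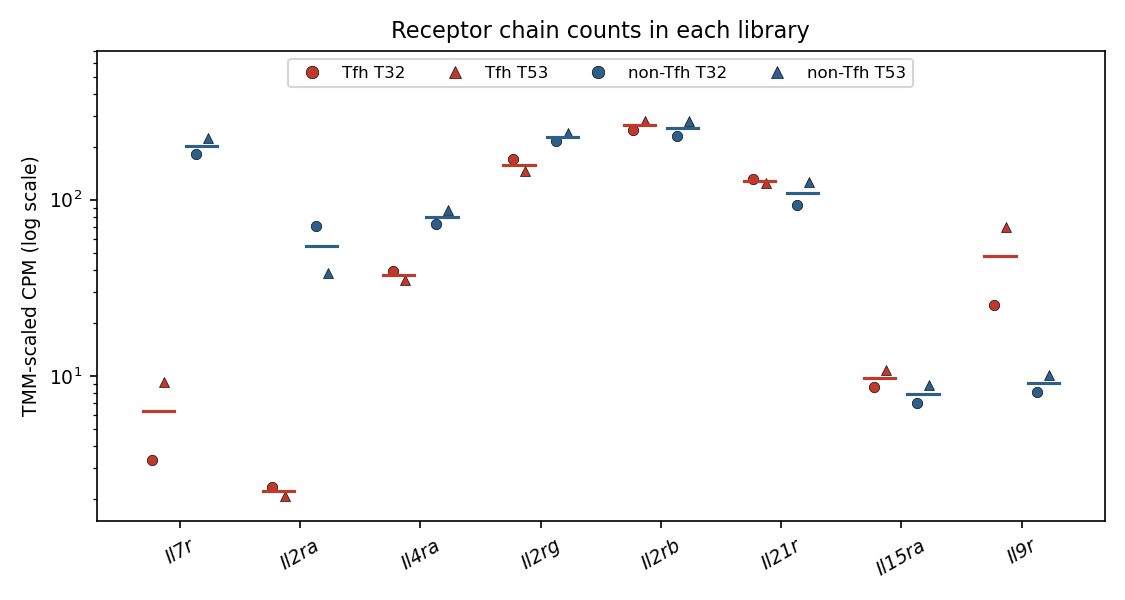
TMM-scaled CPM (log scale) of each receptor chain in the 4 libraries, Tfh in red left of non-Tfh in blue; circles are T32, triangles T53 and bars group means (n = 2 each). Il7r and Il2ra lie far apart between the groups, while Il2rb, Il21r and Il15ra overlap.

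**Figure D2:**
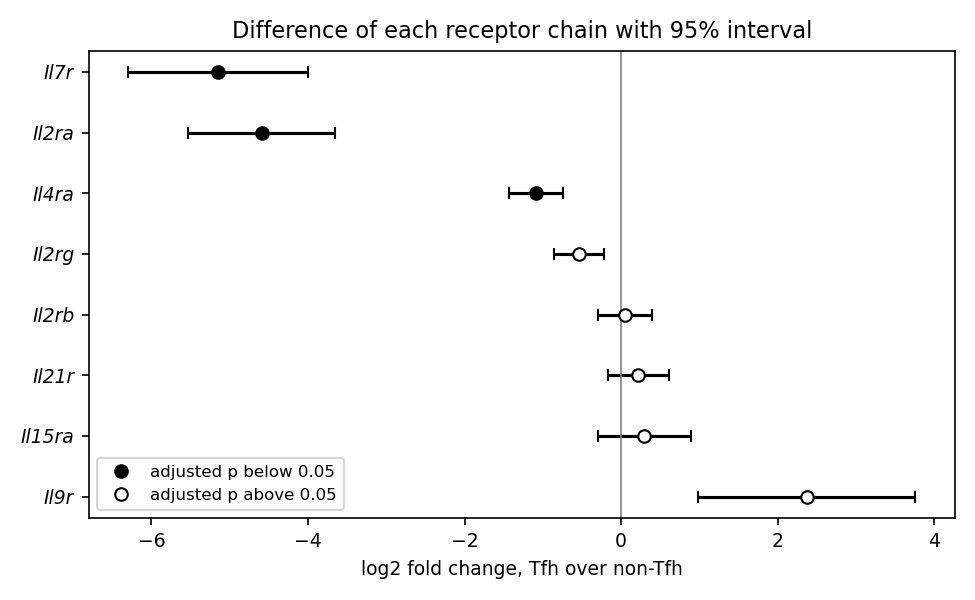
Log2 fold change of each chain, Tfh over non-Tfh, with the unadjusted 95% interval from edgeR's fit; filled points passed an adjusted p of 0.05. The 3 filled points are Il7r at -5.15, Il2ra at -4.59 and Il4ra at -1.09.

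The shared gamma chain, Il2rg (ENSMUSG00000031304, GRCm38 chromosome X, 101264378 to 101268255, minus strand), measured 170 and 145 CPM in Tfh T32 and T53, against 217 and 240 CPM in non-Tfh T32 and T53. Both Tfh libraries lay below both non-Tfh libraries. The log2 fold change was -0.54 ± 0.132 (SE; unadjusted 95% interval -0.85 to -0.22), a 1.45-fold lower level that did not pass (edgeR, adjusted p = 0.0608). It passed in DESeq2 (adjusted p = 0.0159) and without the low count filter in edgeR (adjusted p = 0.00313), but in no fit that left out a library. Of its exon bases, 728 also belong to Gm20489, which had 0 counts in every library, and how reads on such bases were counted is not given in the sources used here.

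The IL-2 receptor is built of the alpha chain Il2ra, which raises the affinity for IL-2 and does not itself signal, the beta chain Il2rb, and the gamma chain. Il2ra (ENSMUSG00000026770, chromosome 2, 11642807 to 11693193) measured 2.35 and 2.10 CPM in Tfh T32 and T53, from 28 and 12 counts, against 70.6 and 38.3 CPM in non-Tfh T32 and T53, from 948 and 341 counts. The groups were far apart, and the non-Tfh libraries differed among themselves: T53 over T32 was 0.543, with a counting interval of 0.478 to 0.615. The log2 fold change was -4.59 ± 0.384 (edgeR, adjusted p = 0.00266), and -4.96 to -4.08 with each library left out in turn, with the call held each time. By size, Il2ra ranked 41 among the 471 genes called lower.

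Regulatory T cells also carry Il2ra. Their factor Foxp3 measured 0 and 0.175 CPM in Tfh libraries, against 0.968 and 2.47 CPM in non-Tfh libraries, and Itgae measured 0 and 0 CPM, against 3.80 and 10.5 CPM. The whole Treg list of Foxp3, Ikzf2, Itgae and Nrp1 summed to 709 and 955 CPM in Tfh cells, most of it Ikzf2, against 458 and 411 CPM in non-Tfh cells, with 1 member higher, 1 lower and 2 not called. Foxp3 had a log2 fold change of -4.57 and was not called (edgeR, adjusted p = 0.0601). Between the non-Tfh libraries, Il2ra and Nrp1 (268 and 183 CPM) were higher in T32. Foxp3 (13 and 22 counts), Itgae and Ikzf2 (185 and 216 CPM) were higher in T53. The part of regulatory T cells in the Il2ra result was not tested. In sorted bulk samples, fewer cells with a transcript and less of it per cell cannot be told apart.

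Il2rb (ENSMUSG00000068227, chromosome 15, 78479256 to 78495271), which serves both the IL-2 and the IL-15 receptor, measured 249 and 281 CPM in Tfh T32 and T53, against 231 and 281 CPM in non-Tfh T32 and T53. The groups overlapped. Its log2 fold change was 0.05 ± 0.145, with an unadjusted 95% interval of -0.30 to 0.40 (edgeR, adjusted p = 0.889). Il15ra (ENSMUSG00000023206, chromosome 2, 11705290 to 11734317), the alpha chain that presents IL-15, measured 8.71 and 10.8 CPM in Tfh T32 and T53, against 7.0 and 8.88 CPM in non-Tfh T32 and T53. These also overlapped, with a log2 fold change of 0.29 (interval -0.30 to 0.89; edgeR, adjusted p = 0.571).

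Il7r (ENSMUSG00000003882, chromosome 15, 9505788 to 9530176, minus strand) encodes the chain for IL-7 that is also part of the TSLP receptor. It measured 3.35 and 9.26 CPM in Tfh T32 and T53, from 40 and 53 counts. In non-Tfh T32 and T53 it measured 181 and 224 CPM, from 2429 and 1996 counts. No library of one group came near the other group. By size, Il7r ranked 22 among the 471 genes called lower (log2 fold change -5.15 ± 0.443, edgeR, adjusted p = 0.00581). The Tfh libraries differed among themselves, T53 over T32 by 2.76 (counting interval 1.80 to 4.27), and the log2 fold change was -4.45 without Tfh T32 and -5.90 without Tfh T53. With only 1 non-Tfh library left in the fit the call was lost in edgeR, with a log2 fold change of -5.31 when T32 was left out (adjusted p = 0.0661) and of -4.99 when T53 was (adjusted p = 0.113).

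Il4ra (ENSMUSG00000030748, chromosome 7, 125552120 to 125579474), the private chain for IL-4 and also part of the IL-13 receptor, measured 39.6 and 35.1 CPM in Tfh T32 and T53, against 72.5 and 87.1 CPM in non-Tfh T32 and T53. Both Tfh libraries lay below both non-Tfh libraries. The log2 fold change was -1.09 ± 0.146 (edgeR, adjusted p = 0.00922), and -1.21 to -0.95 with each library left out in turn, with the call held each time. Its ligand gene Il4 moved the other way: Il4 measured 30.2 and 30.7 CPM in Tfh T32 and T53, against 0.819 and 0.450 CPM in non-Tfh T32 and T53.

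Il21r (ENSMUSG00000030745, chromosome 7, 125603429 to 125633570), the private chain for IL-21, measured 130 and 124 CPM in Tfh T32 and T53, against 93.3 and 125 CPM in non-Tfh T32 and T53. Tfh T53 fell just inside the non-Tfh range, so the groups overlapped. The log2 fold change was 0.22 ± 0.161, with an unadjusted 95% interval of -0.17 to 0.61 (edgeR, adjusted p = 0.506). Il21 itself rose, at 347 and 406 CPM in Tfh T32 and T53, against 25.6 and 24.6 CPM in non-Tfh T32 and T53.

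Il9r (ENSMUSG00000020279, chromosome 11, 32187541 to 32200279, minus strand), the private chain for IL-9, measured 25.4 and 70.0 CPM in Tfh T32 and T53, from 303 and 401 counts, against 8.12 and 10.1 CPM in non-Tfh T32 and T53, from 109 and 90 counts. Both Tfh libraries lay above both non-Tfh libraries, but they differed from each other by 2.76 (counting interval 2.37 to 3.21). The log2 fold change was 2.37 ± 0.535, with an unadjusted 95% interval of 0.98 to 3.76, and did not pass (edgeR, adjusted p = 0.0691). The call depended on the setting: Il9r passed in DESeq2 (adjusted p = 2.09e-06), in edgeR without the robust option (adjusted p = 0.0381), and in edgeR without Tfh T32 (log2 fold change 2.95, adjusted p = 0.000438) or without Tfh T53 (log2 fold change 1.498, adjusted p = 0.0202), but not when either non-Tfh library was left out (adjusted p = 0.476 for T32 and 0.497 for T53). With a Tfh library left out, the lone Tfh library is assumed to vary like the non-Tfh pair, so that the 2.76-fold difference between the Tfh libraries does not enter those p-values.

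Other cells of a lymph node can carry Il9r, Il4ra and Il21r, mast cells and B cells among them. All 6 mast cell and granulocyte markers were at 0 in both Tfh libraries. Of the B cell markers, Ebf1 and Blk were at 0 in both Tfh libraries, and Cd79a, Cd79b and Ms4a1 were at or below 0.699 CPM there. In non-Tfh T32 and T53, Ebf1 measured 0 and 0.337 CPM, Blk 0 and 0.562 CPM and Ms4a1 0 and 0.899 CPM. Cd79a measured 0.223 and 0.674 CPM and Cd79b 1.49 and 0.225 CPM in these non-Tfh libraries. The list summed to 145 and 140 CPM in Tfh cells, against 11.3 and 18.7 CPM in non-Tfh cells. Of that sum Cd22, an inhibitory lectin best known from B cells, made up 140 and 134 CPM in Tfh cells and 9.61 and 14.8 CPM in non-Tfh cells, and Pax5 gave 5.11 and 5.24 CPM against 0 and 0.450 CPM. Both were called higher in Tfh cells by edgeR (adjusted p = 0.000727 and 0.0238). The part of B cells and mast cells in the results was not tested.

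**Figure D3:**
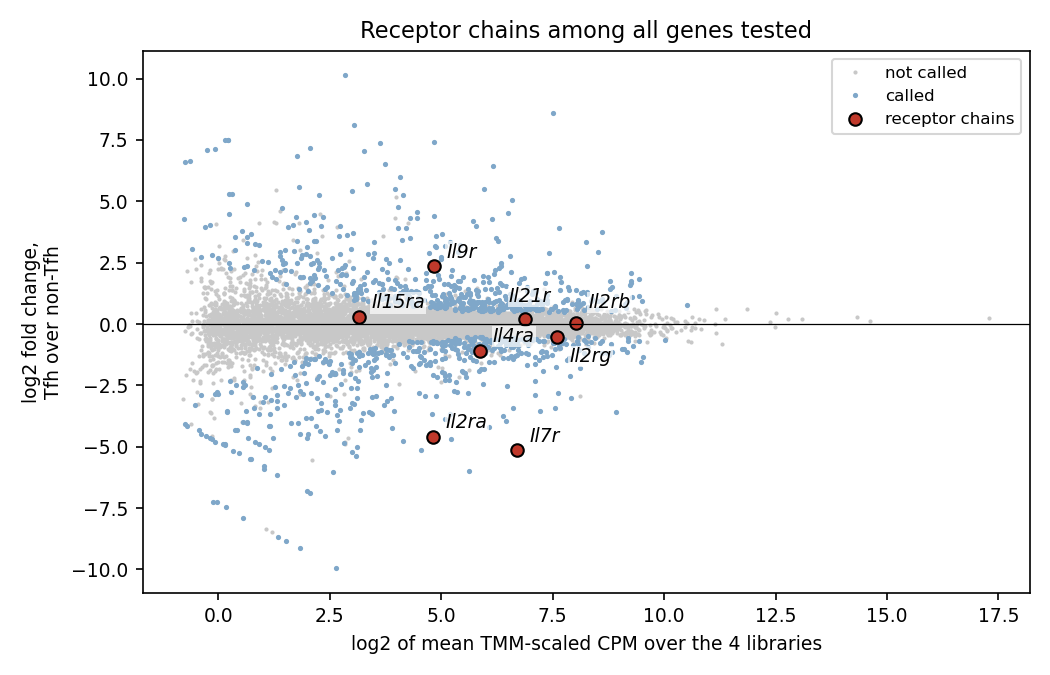
Log2 fold change, Tfh over non-Tfh, against the log2 of mean CPM for the 11702 genes tested; called genes are blue, others grey and the 8 receptor chains red. Il7r and Il2ra lie among the larger decreases, Il9r lies above most genes of its level without a call, and Il2rb sits near 0.

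To compare chains with each other, CPM were divided by the kilobases of annotated exons. In Tfh cells the order of levels was Il2rg (65.8 ± 7.39 CPM per kilobase), Il2rb (61.8 ± 5.24), Il21r (38.3 ± 1.37), Il9r (9.65 ± 6.38), Il4ra (6.23 ± 0.533), Il15ra (2.20 ± 0.337), Il7r (1.35 ± 0.896) and Il2ra (0.389 ± 0.0309; mean ± SD, n = 2). Of neighbours in this order, Il2rg and Il2rb, Il9r and Il4ra, and Il15ra and Il7r had overlapping libraries, and the other neighbours did not overlap. In non-Tfh cells the order was Il2rg (95.6 ± 6.83 CPM per kilobase), Il2rb (59.7 ± 8.20), Il7r (43.5 ± 6.59), Il21r (32.9 ± 6.83), Il4ra (13.3 ± 1.72), Il2ra (9.54 ± 4.0), Il9r (1.84 ± 0.286) and Il15ra (1.79 ± 0.299; n = 2). There the libraries of Il4ra and Il2ra overlapped, as did those of Il9r and Il15ra, and the other neighbours did not. Il7r thus stood last but one in Tfh cells, whereas in non-Tfh cells only Il2rg and Il2rb lay above it.

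Ratios between chains within a library do not depend on library scaling. Per kilobase, Il7r stood at 0.0101 and 0.0328 of the level of Il2rg in Tfh T32 and T53, against 0.428 and 0.479 in non-Tfh T32 and T53. The ratio of Il2ra to Il2rb was 0.00707 and 0.00560 in Tfh libraries, against 0.229 and 0.102 in non-Tfh libraries. So the affinity chain was far scarcer beside the signalling chain in both Tfh libraries. The ratio of Il2rb to Il2rg was 0.818 and 1.08 in Tfh libraries, against 0.594 and 0.652 in non-Tfh libraries, and that of Il21r to Il2rg was 0.552 and 0.616, against 0.309 and 0.376. Relative to the shared chain, Il2rb and Il21r were thus higher in both Tfh libraries although neither gene passed the test by itself. By themselves both genes overlapped between the groups. Il2rg was lower in both Tfh libraries, at 170 and 145 CPM against 217 and 240 CPM, which raises every ratio to it there. The ratio of Il4ra to Il2rg was 0.0929 and 0.0965 in Tfh libraries, against 0.133 and 0.145 in non-Tfh libraries. The 7 chains other than Il2rg summed to 112 and 128 CPM per kilobase in Tfh libraries, against 148 and 177 in non-Tfh libraries. Il7r made up 0.392 and 1.05% of the summed level of all 8 chains in Tfh libraries, against 16.2 and 17.4% in non-Tfh libraries. Il21r made up 21.4 and 19.8% in Tfh libraries, against 11.7 and 13.6% in non-Tfh libraries. With 2 libraries a group no test of these ratios was made.

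**Figure D4:**
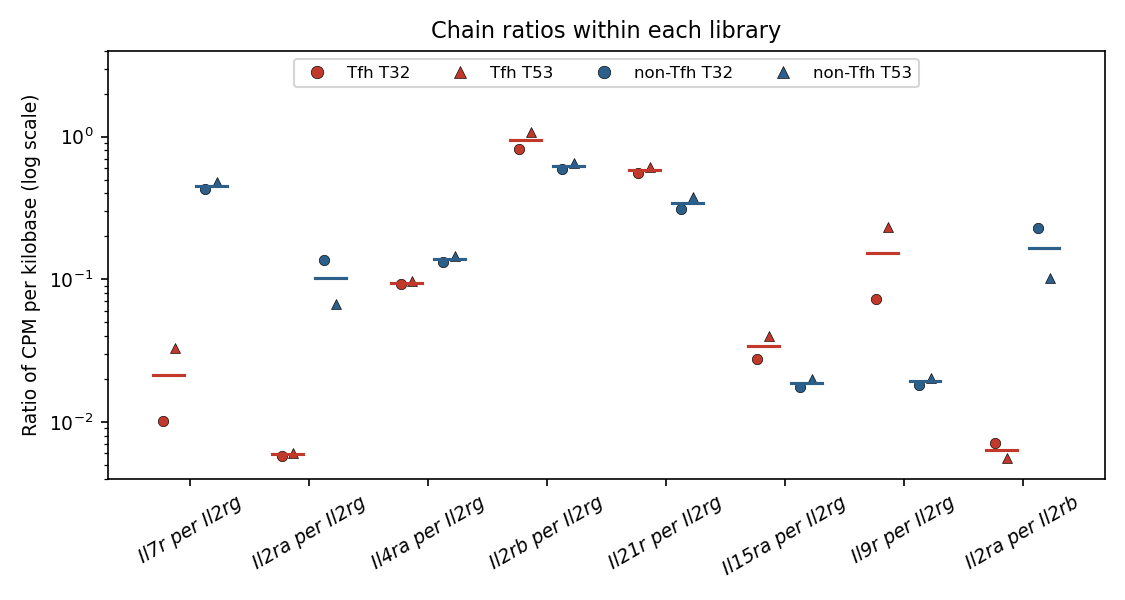
Ratio of CPM per kilobase of each other chain to Il2rg, and of Il2ra to Il2rb, within each library (log scale). Tfh is in red, left of non-Tfh in blue, and bars are group means. No ratio shown overlaps between the groups, and the ratios with Il7r and Il2ra on top differ most. All but the last have Il2rg below, which did not overlap either, whereas Il2rb, Il21r and Il15ra overlapped by themselves. Ratios of other genes were not counted, and of all single genes tested 52.2% did not overlap.

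Il4ra and Il21r are neighbours on chromosome 7, on the same strand with 24.0 kb and no annotated gene between them, and Il2ra and Il15ra are neighbours on chromosome 2, on the same strand with 12.1 kb between them. In both pairs 1 gene fell (Il4ra, Il2ra), while the next gene downstream did not pass the test (Il21r with 0.22, Il15ra with 0.29 on the log2 scale). The difference within a pair was not tested.

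Genes around the receptors came from lists of ligands, partners, signal transducers, inhibitors, targets and regulators. Among all 11702 genes tested, edgeR called 4.02% lower and 4.47% higher in Tfh cells. Of 8 ligand genes, 2 were tested, Il4 and Il21. Il4 was 45.0-fold higher in Tfh cells (log2 fold change 5.49 ± 0.274, edgeR, adjusted p = 0.000373). Il21 was 15.0-fold higher (3.90 ± 0.145, edgeR, adjusted p = 0.000183). With 11 and 4 counts in non-Tfh T32 and T53, Il4 passed the count filter through its 361 and 176 counts in Tfh T32 and T53. It could thus hardly be called in the other direction, and the shared direction of the 2 is no result about the ligands. Il21 had 344 and 219 counts in non-Tfh T32 and T53. Il2 measured 0.419 and 0.175 CPM in Tfh T32 and T53, against 0.447 and 2.36 CPM in non-Tfh T32 and T53, too few counts for the test, and Il9 and Tslp were at 0 in all 4 libraries. Of partner chains, neither of the 2 tested was called: Crlf2, which pairs with Il7r to bind TSLP, measured 50.5 and 54.0 CPM in Tfh libraries against 33.6 and 43.6 CPM in non-Tfh libraries (edgeR, adjusted p = 0.175), and Il13ra1, the partner of Il4ra in the IL-13 receptor, had 23 and 10 counts in Tfh libraries against 0 and 6 in non-Tfh libraries (edgeR, adjusted p = 0.191). Il13ra1 passed in edgeR without the low count filter (adjusted p = 0.00425) and without non-Tfh T53 (adjusted p = 0.0197), where the remaining non-Tfh library is the one with 0 counts.

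Of 11 signal transducers, all tested, 1 fell and 0 rose, beside 4.02% lower and 4.47% higher among all genes tested. Their median log2 fold change was -0.01, as over all genes tested. The one that fell was Pik3r1, a regulatory subunit of PI3 kinase, at 115 and 105 CPM in Tfh libraries against 166 and 174 CPM in non-Tfh libraries (edgeR, adjusted p = 0.0235). Leaving out either Tfh library ended its call (adjusted p = 0.0726 for T32 and 0.166 for T53). The kinase genes themselves did not pass: Jak3 measured 317 and 318 CPM in Tfh libraries against 257 and 283 CPM in non-Tfh libraries, and Jak1 measured 583 and 660 CPM against 645 and 707 CPM. Nor did the STAT5 genes: Stat5a had a log2 fold change of 0.39 (unadjusted 95% interval 0.09 to 0.70) and Stat5b of 0.30 (0.02 to 0.58).

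Of 7 inhibitors of the signal, 2 fell, 1 rose and 4 were not called, beside 4.02% lower and 4.47% higher among all genes tested. Cish, which feeds back on IL-2 signalling, measured 1.93 and 1.05 CPM in Tfh T32 and T53, against 12.4 and 26.0 CPM in non-Tfh T32 and T53. It fell by 11.9-fold (log2 fold change -3.57 ± 0.489; edgeR, adjusted p = 0.0112), with -4.16 without Tfh T32 and -2.95 without non-Tfh T53. Socs2, another inhibitor of the list, had 3 and 1 counts in Tfh libraries against 46 and 45 in non-Tfh libraries. Its level fell by 17.8-fold (edgeR, adjusted p = 0.00802). Socs1, which blocks JAK kinases, measured 102 and 81.9 CPM in Tfh libraries against 29.7 and 39.1 CPM in non-Tfh libraries, a 2.68-fold rise (edgeR, adjusted p = 0.00802).

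Of 12 genes known as IL-2 or IL-7 targets, all tested, 2 fell and 0 rose, with a median log2 fold change of -0.46. Among all genes tested, 4.02% were called lower and 4.47% higher, with a median of -0.01. Prdm1, which encodes the Tfh antagonist Blimp-1, measured 1.26 and 0.349 CPM in Tfh libraries against 6.78 and 6.41 CPM in non-Tfh libraries (log2 fold change -2.84; edgeR, adjusted p = 0.0188; -4.18 without Tfh T32). Osm, an IL-6 family cytokine, measured 6.79 and 5.94 CPM in Tfh libraries against 17.4 and 16.4 CPM in non-Tfh libraries (log2 fold change -1.40; edgeR, adjusted p = 0.0111). The survival gene Bcl2 measured 50.02 and 72.0 CPM in Tfh libraries against 60.04 and 52.5 CPM in non-Tfh libraries and overlapped.

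Of 11 regulators known to act on receptor chain genes, 10 were tested, 4 fell, 1 rose and 5 were not called. Among all genes tested, 4.02% were called lower and 4.47% higher. Runx3 measured 13.7 and 6.11 CPM in Tfh libraries against 56.7 and 80.5 CPM in non-Tfh libraries, a 6.57-fold fall (edgeR, adjusted p = 0.0181). Tbx21 (T-bet) and Eomes, T-box factors known to drive Il2rb, fell by 2.66 and 2.86 on the log2 scale (edgeR, adjusted p = 0.0366 and 0.0390), while Il2rb itself was not called. Foxp1, a forkhead factor known to repress Il7r, measured 156 and 166 CPM in Tfh libraries against 248 and 319 CPM in non-Tfh libraries (edgeR, adjusted p = 0.0260). Gfi1, a zinc finger repressor of Il7r, rose 1.89-fold (edgeR, adjusted p = 0.0425), at 23.6 and 17.8 CPM in Tfh libraries against 11.4 and 10.7 CPM in non-Tfh libraries. Foxo1, the forkhead activator of Il7r, measured 164 and 208 CPM in Tfh libraries against 229 and 301 CPM in non-Tfh libraries and did not pass (edgeR, adjusted p = 0.160).

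All 5 regulator calls were lost in some fits with a library left out, while the log2 fold changes kept their direction. In edgeR, Eomes lost its call with each library left out in turn (log2 fold change -3.29 to -2.28, adjusted p 0.0586 to 0.273). Foxp1 lost it without Tfh T32 (-0.77, adjusted p = 0.0944) or Tfh T53 (-0.85, 0.0749). Runx3 lost it without non-Tfh T32 (-2.94, 0.0655) or non-Tfh T53 (-2.44, 0.0977), and Tbx21 without Tfh T53 (-2.17, 0.0528) or non-Tfh T53 (-2.18, 0.0634). Gfi1 lost it without Tfh T32 (0.69, 0.238), non-Tfh T32 (0.97, 0.0767) or non-Tfh T53 (0.88, 0.0817). Leaving out Tfh T32 moved the log2 fold change of Runx3 to -3.48 and that of Tbx21 to -3.91.

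Class I cytokine receptor chains outside this family served as a comparison. Of 19, 9 were tested, 2 fell and 0 rose, with a median log2 fold change of -0.09. Among all genes tested, 4.02% were called lower and 4.47% higher, with a median of -0.01. Il23r, the IL-23 receptor chain, measured 2.43 and 1.92 CPM in Tfh libraries against 17.5 and 9.67 CPM in non-Tfh libraries (log2 fold change -2.61; edgeR, adjusted p = 0.0116). Il12rb2, a chain of the IL-12 receptor, measured 2.35 and 1.92 CPM in Tfh libraries against 6.85 and 11.5 CPM in non-Tfh libraries (log2 fold change -2.06; edgeR, adjusted p = 0.0220), a call that ended when either Tfh library was left out (adjusted p = 0.0555 for T32 and 0.0686 for T53). No test was made of the difference between the 2 sets of chains.

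**Figure D5:**
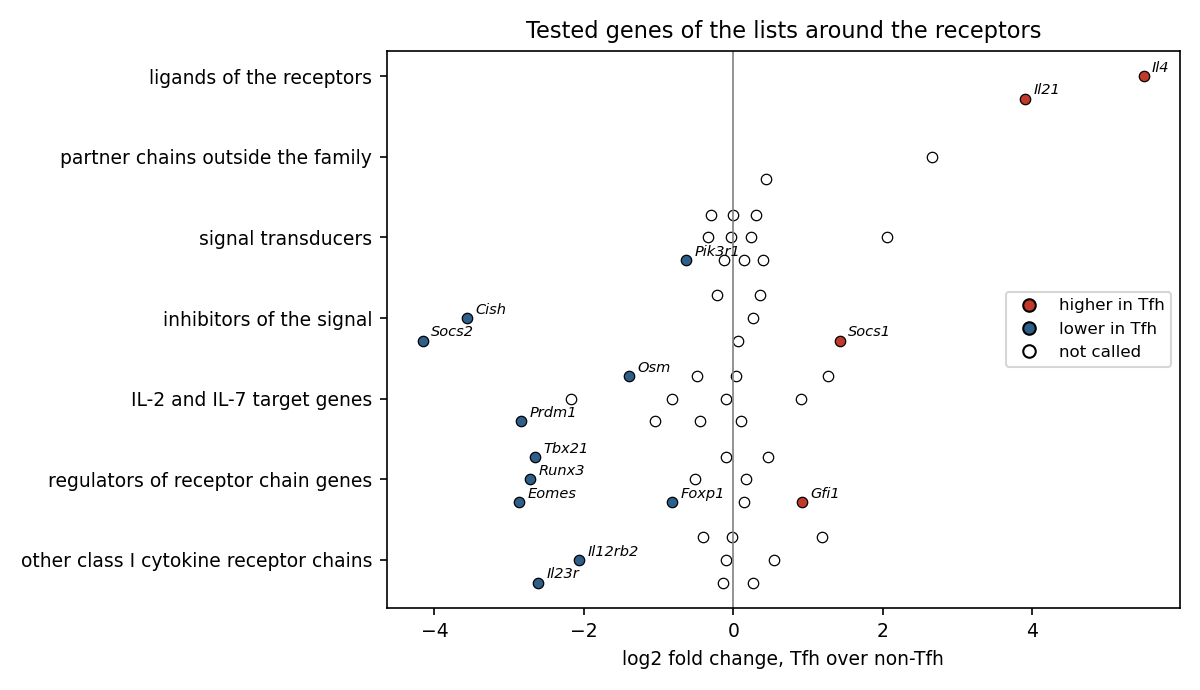
Log2 fold change, Tfh over non-Tfh, of the tested genes of each list named on the vertical axis, spread vertically only for legibility; red points were called higher in Tfh, blue lower, and open points were not called. The receptor chains themselves and the cell type markers are not drawn. Among the genes drawn, Il4 and Il21 lie farthest to the right, and Socs2 and Cish farthest to the left.

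Some genes followed the receptor chains closely over the 4 libraries, by Euclidean distance between log2 CPM centred on each gene's mean. Nearest to Il7r were Anxa1, an annexin (distance 0.197), and St8sia6, a sialyltransferase (0.484). Anxa1 measured 0.251 and 0.699 CPM in Tfh T32 and T53, against 13.2 and 17.6 CPM in non-Tfh T32 and T53. A single count equals about 0.0838 scaled CPM in Tfh T32 and 0.175 in Tfh T53, so the Tfh values of Anxa1 rest on few counts. Nearest to Il2ra were Fam129b (0.528) and Coro2a, a coronin (0.567). These were also low in Tfh T32 and T53, Fam129b at 0.503 and 0.524 CPM and Coro2a at 0.838 and 0.873 CPM. Nearest to Il4ra were Hdgfl3 (0.0840) and Grap2, a T cell adaptor (0.0967). Nearest to Il9r were Pbx3, a homeodomain factor (0.425), and Slc16a10, an amino acid transporter (0.468). Pbx3 measured 16.3 and 31.96 CPM in Tfh T32 and T53, against 3.58 and 4.95 CPM in non-Tfh T32 and T53, so that T53 was the higher Tfh library for both genes. For the other chains the nearest were Rbm14 (0.00817) and Sec24b (0.0121) for Il2rb, Ubald1 (0.0357) and Slc35b3 (0.0478) for Il2rg, Sh3pxd2a (0.0354) and Zfp1 (0.0436) for Il21r, and Mxd4 (0.0456) and Apc (0.0476) for Il15ra. A likeness over 4 libraries describes these libraries only.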

How the data were processed

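The 4 libraries (2 Tfh, 2 non-Tfh) were stranded total RNA, read from both ends. The authors deposited raw counts per Ensembl gene; per the submitters' processing notes the tools were TopHat2, Bowtie2 and HTSeq and the build GRCm38 (mm10), and their versions, the annotation release and the strand setting are not given in the sources used here. Totals were 5725358 to 13360563 counts. GENCODE M21 (GRCm38) gave symbols, positions and exon lengths (the union over transcripts) for 37693 of 39179 identifiers; 1486 had no match and took 0.209 to 0.228% of each total.

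Counts were tested in R 4.3.3 with edgeR 4.0.16: filterByExpr (11702 genes kept), TMM scaling, robust quasi-likelihood fits with the group alone (2 residual degrees of freedom, biological coefficient of variation 0.156), two-sided, Benjamini-Hochberg over all genes tested at 0.05. The SE was derived from the log2 fold change and F, and 95% intervals use it with the moderated degrees of freedom. Counting intervals of ratios are exact binomial (95%) and cover counting error only. The code was tested on simulated data with 200 changed genes. Alternatives used DESeq2 1.42.0 and limma 3.58.1; ratios, motifs and figures used Python 3.11.15.

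The receptor chains and lists were chosen with earlier results of these data known. Named were all 8 chains, up to 4 called members of each list (all where 5 or fewer were called, the 2 most abundant where none was), and the 2 tested genes nearest to each chain with a mean of at least 5 CPM (prior count 0.5). Il2, Il9, Tslp, Jak1, Jak3, Stat5a, Stat5b, Bcl2, Foxo1 and the cell type markers were added for their roles. One marker gene is not reported here.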

Additional observations from a re-analysis of the deposited data

How the results depend on the processing

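The falls of Il2ra and Il4ra kept their call under all 13 alternatives, and that of Il7r under 11, the exceptions being the fits with 1 non-Tfh library (log2 fold change -5.90 to -4.45 with a library left out). The chains called numbered 5, as against 3, with DESeq2 and with the replicate block, and 2 to 4 with a library left out. The genes called numbered 1986 without the low count filter, 2120 with the replicate block and 545 to 884 with a library left out, as against 994. Il2rg (-0.54) gained a call with DESeq2, without the count filter and with the replicate block. Il9r gained one with DESeq2 (2.38), without the robust option (2.37) and with the replicate block (2.22), and ran from 1.498 to 2.95 with a library left out. Il2rb, near 0, changed sign without Tfh T53 (-0.02) and without non-Tfh T32 (-0.0824), and ran from -0.0824 to 0.20. With limma-voom the 3 falls were called, as in edgeR, but Tbx21 (adjusted p = 0.0650), Eomes (0.0530) and Il12rb2 (0.0520) lost their calls. With DESeq2 Eomes lost its call (adjusted p = 0.160).

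The library numbers are not stated to pair samples. Deviations of same-numbered libraries from their group means correlated at 0.354 across genes, a hint from the data over 2 pairs. Under the block Runx3 (adjusted p = 0.0650) and Tbx21 (0.0652) lost their calls and Crlf2 gained one (0.0358).

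The depth limits Il7r and Il2ra in Tfh cells, where 12 to 53 counts stand behind each value, and Socs2, with 3 and 1 counts. Among other called genes, Tfh T32 and T53 gave 2 and 2 counts for Eomes, 15 and 2 for Prdm1 and 28 and 4 for Tbx21. They gave 23 and 6 for Cish, 10 and 1 for Klrd1, 28 and 11 for Il12rb2 and 29 and 11 for Il23r. In non-Tfh T32 and T53, Il4 had 11 and 4 counts and Pax5 had 0 and 4.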

Other observations

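Il7r and Il9r had the widest spread of the 8 chains between the Tfh libraries, both 2.76-fold higher in T53 than in T32. Among the 9494 genes with at least 5 CPM in Tfh cells, 0.832% differed by as much as Il7r or more, and 0.843% by as much as Il9r. Since both were higher in T53, the ratio of Il9r to Il7r per kilobase came to 7.14 and 7.13 in Tfh T32 and T53, against 0.0423 and 0.0425 in non-Tfh T32 and T53. Il7r had only 40 and 53 counts in these Tfh libraries, with a counting interval of 1.80 to 4.27 for T53 over T32. The closeness of the 2 Tfh ratios is therefore not measured to the digits shown. In non-Tfh cells Il2ra had the widest spread of the chains, and 3.51% of 9449 genes with at least 5 CPM there differed by as much or more. These spreads were looked at after the values were seen.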
